A study of Homo sapiens with 6 samples.

Results

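The 7 transcription factors that drive epithelial-mesenchymal transition (EMT), ZEB1, ZEB2, SNAI1, SNAI2, TWIST1, TWIST2 and PRRX1, were followed in a pair of small cell lung cancer (SCLC) lines. A peak was taken for a gene when it overlapped the gene's span on hg19 or the 5 kb on either side of it. This rule took 71 of the 148837 peaks in the 4 peak lists. They were 20 of 51091 H3K27ac peaks in H69M and 9 of 38255 in H69, and 30 of 37853 H3K27me3 peaks in H69M and 12 of 21638 in H69. H69M is a line derived from H69, and published work describes it as mesenchymal in character. H69, also called NCI-H69, is an established SCLC line that grows as floating aggregates. Neither line carried a further treatment or allele in the labels, which give no number of clones for H69M. Each line gave 1 library per mark from chromatin immunoprecipitation followed by sequencing (ChIP-seq), so no difference below has a replicate check and none has a p-value.

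In EMT, epithelial cells loosen their junctions and take on the shape and movement of mesenchymal cells. The ZEB proteins (zinc fingers with a homeodomain) and the SNAIL proteins SNAI1 and SNAI2 (zinc fingers) bind the E-box hexamer CACCTG, or CAGGTG on the opposite strand, and repress epithelial genes such as the E-cadherin gene CDH1. The TWIST proteins are basic helix-loop-helix factors that bind a wider set of E-boxes, and PRRX1 is a paired-related homeodomain factor of mesenchyme. H3K27ac marks active promoters and enhancers, whereas H3K27me3, written by Polycomb repressive complex 2, marks silenced developmental genes, so the same lysine reports opposite states.

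SNAI2, TWIST1 and SNAI1 carried H3K27ac over their starts in H69M and in H69, SNAI1 over a shorter stretch than the others. ZEB1 and ZEB2 had wide H3K27ac peaks near the start in H69M and short, low-ranking ones in H69, and PRRX1 had H3K27ac in H69M alone. TWIST2 carried H3K27me3 and no H3K27ac at its start in H69M and in H69, and PRRX1 carried H3K27me3 there as well. H3K27ac covered a greater length in H69M at 7 of the 7 genes (6 over the gene spans alone, without SNAI2), but this was also the case in 77.1% of all 20 kb tiles and 81.8% of all 200 kb tiles of the genome that held the mark, so the direction alone is not particular to these genes. H3K27ac was at least 2 times as long in H69M, or listed in H69M alone, at 4 genes (ZEB1, ZEB2, TWIST2 and PRRX1), against 42.9% of 20 kb tiles and 41.0% of 200 kb tiles. It was in H69M alone at 2 of the 7 genes (TWIST2 and PRRX1), against 30.9% of 20 kb tiles and 16.4% of 200 kb tiles. As a share of the genes this lies below the 20 kb tile share and above the 200 kb one. The calls at ZEB1, ZEB2, TWIST2 and PRRX1 held under the other settings. With 20 kb on each side of the genes SNAI1 passed 2 times as well, with a ratio of 2.24 in place of 1.62. Tiles are fixed bins set without regard to genes, and only the part of a peak inside a tile counts. The gene windows are 12.2 to 220.6 kb long and sum whole peaks, so the tile shares are only a rough guide. The H69M list is longer and covers 76.8 Mb, against 48.2 Mb in H69. Depth is unknown, and its part in these differences was not tested.

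**Figure D1:**
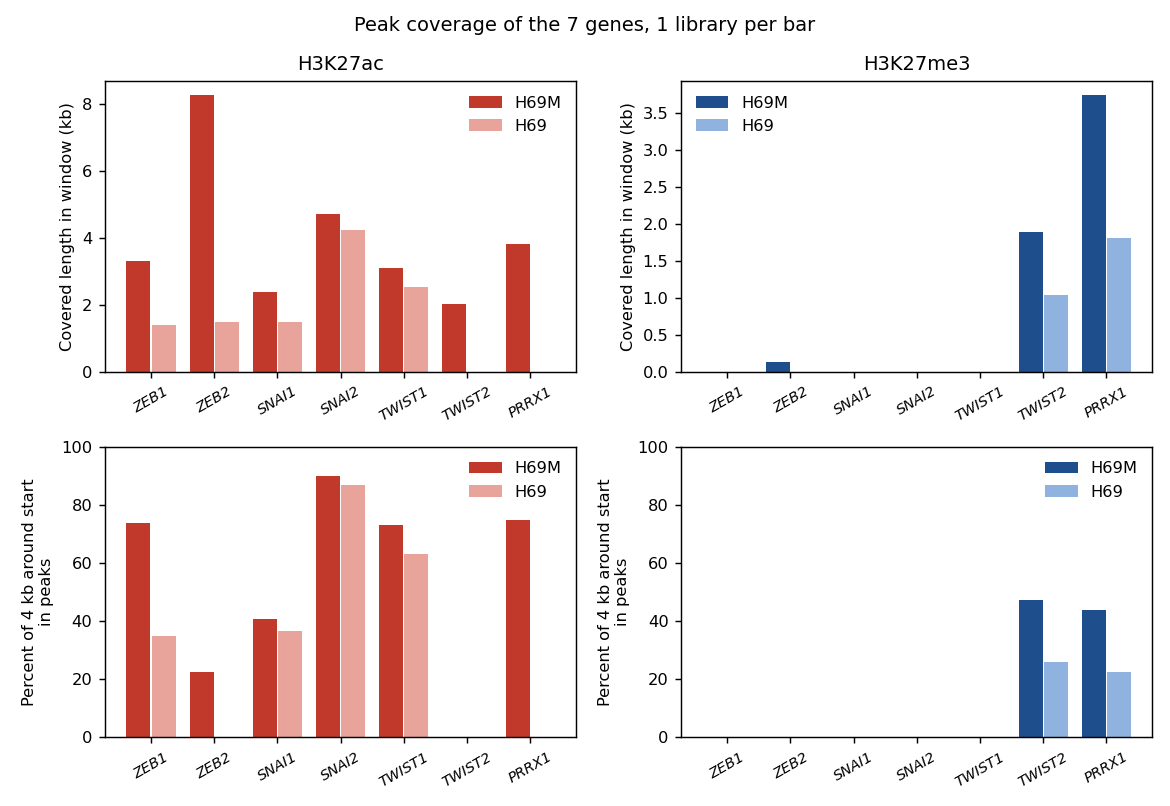
The upper plots give the covered length (kb) of all peaks of a mark in each gene's window, and the lower plots the percent of the 4 kb around the annotated start that lies in peaks. Dark bars are H69M and light bars H69, 1 library each, with no error bars. The H3K27ac bars of H69M stand above those of H69 for all 7 genes in the upper plot, by most at ZEB2, while H3K27me3 stands at TWIST2 and PRRX1 in both lines.

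ZEB1, on chromosome 10 from 31608101 to 31818742 (plus strand), encodes the repressor most often linked to the mesenchymal state in carcinoma cells. In H69M a peak of 3303 bp at 31607146 to 31610448 ran from 955 bp before the start to 2347 bp after it. In H69 a peak of 670 bp at 31607338 to 31608007 and a peak of 726 bp at 31608822 to 31609547 lay inside the same stretch and left the start base itself uncovered. The authors' score of the H69M peak was 2686, and 86.5% of the H69M list scored lower. The H69 peaks scored 139.5 and 91.7, with 40.2% and 27.5% of the H69 list below them. The score is the deposited value of each peak and ranks peaks within a list only. Of the 4 kb around the start, peaks covered 73.9% in H69M and 34.9% in H69. No other H3K27ac peak was listed along the 211 kb gene in H69M or H69, and no H3K27me3 peak in either. The nearest H3K27me3 peak to the start was 108 kb away in H69M and 804 kb away in H69.

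ZEB2, on chromosome 2 from 145141942 to 145277958 (minus strand), encodes a close relative of ZEB1 that binds the same E-boxes. It had 8 H3K27ac peaks over 8.26 kb in H69M and 2 over 1.47 kb in H69, a covered length ratio of 5.62. The strongest H69M peak, 3145 bp at 145273243 to 145276387, lay inside the gene from 1571 to 4715 bp after the annotated start, with a score of 2297 (84.6% of the list below). The only H69 peak there, 962 bp at 145274263 to 145275224, scored 104.0 (31.8% below). At the annotated start H69M had a weak peak of 466 bp with a score of 52.2, and within 2 kb of it no peak was listed in H69. The strongest ZEB2 peak therefore lay inside the gene and not on the start taken here. Farther in, a peak with its centre 131 kb after the start was listed in H69M (1265 bp, score 337.4) and in H69 (508 bp, score 108.1). H69M alone had 3 peaks with centres 81.0 to 89.4 kb after the start, scored 68.2 to 125.2, and 2 peaks 2.545 and 3.76 kb before it, scored 50.9 and 253.7. A lone H3K27me3 peak of 132 bp (score 73.4) lay under the strongest H3K27ac peak in H69M, and H69 had none.

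How rare such sites were can be read from the whole lists. Of the 4 H69M peaks in the windows with a score of 2000 or more, 2 (ZEB1 and ZEB2) overlapped no H69 peak at or above the H69 median score of 212.6, against 6.07% of the 8727 such peaks in the genome. With a limit of 1000 these were 3 of 5, with PRRX1 the third, against 13.1% of 13482. Of the 2 H69 peaks in the windows with a score of 2000 or more, at SNAI2 and TWIST1, 0 lacked an H69M peak at or above the H69M median score of 237.9, against 0.717% of 5580. These limits were chosen after the values were seen, and the counts of members are small.

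SNAI1, on chromosome 20 from 48599513 to 48605420 (plus strand), encodes Snail, a short-lived repressor often induced early in EMT. A peak stood over its start in H69M (1629 bp, 48598573 to 48600201, score 675.7) and in H69 (1467 bp, 48598599 to 48600065, score 338.8). In both lists the start peak was of middling rank, with 68.1% of peaks scoring lower in H69M and 58.8% in H69. H69M also had a weak peak of 752 bp past the end of the gene (score 98.0). The covered length was thus 914 bp greater in H69M, but 162 bp greater over the gene span alone or for peaks scored 100 or higher.

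SNAI2, on chromosome 8 from 49830236 to 49834299 (minus strand), encodes Slug, a repressor known from neural crest and basal epithelial cells. H3K27ac covered 89.8% of the 4 kb around its start in H69M and 86.8% in H69, the highest share of the 7 genes in each line. In H69M a peak of 2622 bp with a score of 3100 lay over the start, beside an upstream peak of 2091 bp with a score of 786.2. In H69 a peak of 1946 bp with a score of 3100 lay over the start, beside a peak of 814 bp inside the gene (score 210.9) and an upstream peak of 1463 bp (score 411.3). Scores pile up at 3100, so the start peaks of SNAI2 cannot be ranked by strength. In the window SNAI2 was covered over 4713 bp in H69M and 4223 bp in H69, a ratio of 1.12, the lowest of the genes covered in both lines. Over the gene span alone the difference turned round, to -138 bp.

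TWIST1, on chromosome 7 from 19155091 to 19157295 (minus strand), encodes a factor of cranial mesoderm that is re-expressed in many carcinomas. A peak with a score of 3100 covered the start in H69M (3102 bp, 19155123 to 19158224) and in H69 (2527 bp, 19155692 to 19158218). Upstream the peaks ended almost alike, 929 bp before the start in H69M and 923 bp in H69. Inside the gene the peak reached 2172 bp after the start in H69M and 1603 bp in H69. For SNAI2 and TWIST1 H3K27ac at the start was therefore listed in H69 as well.

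**Figure D2:**
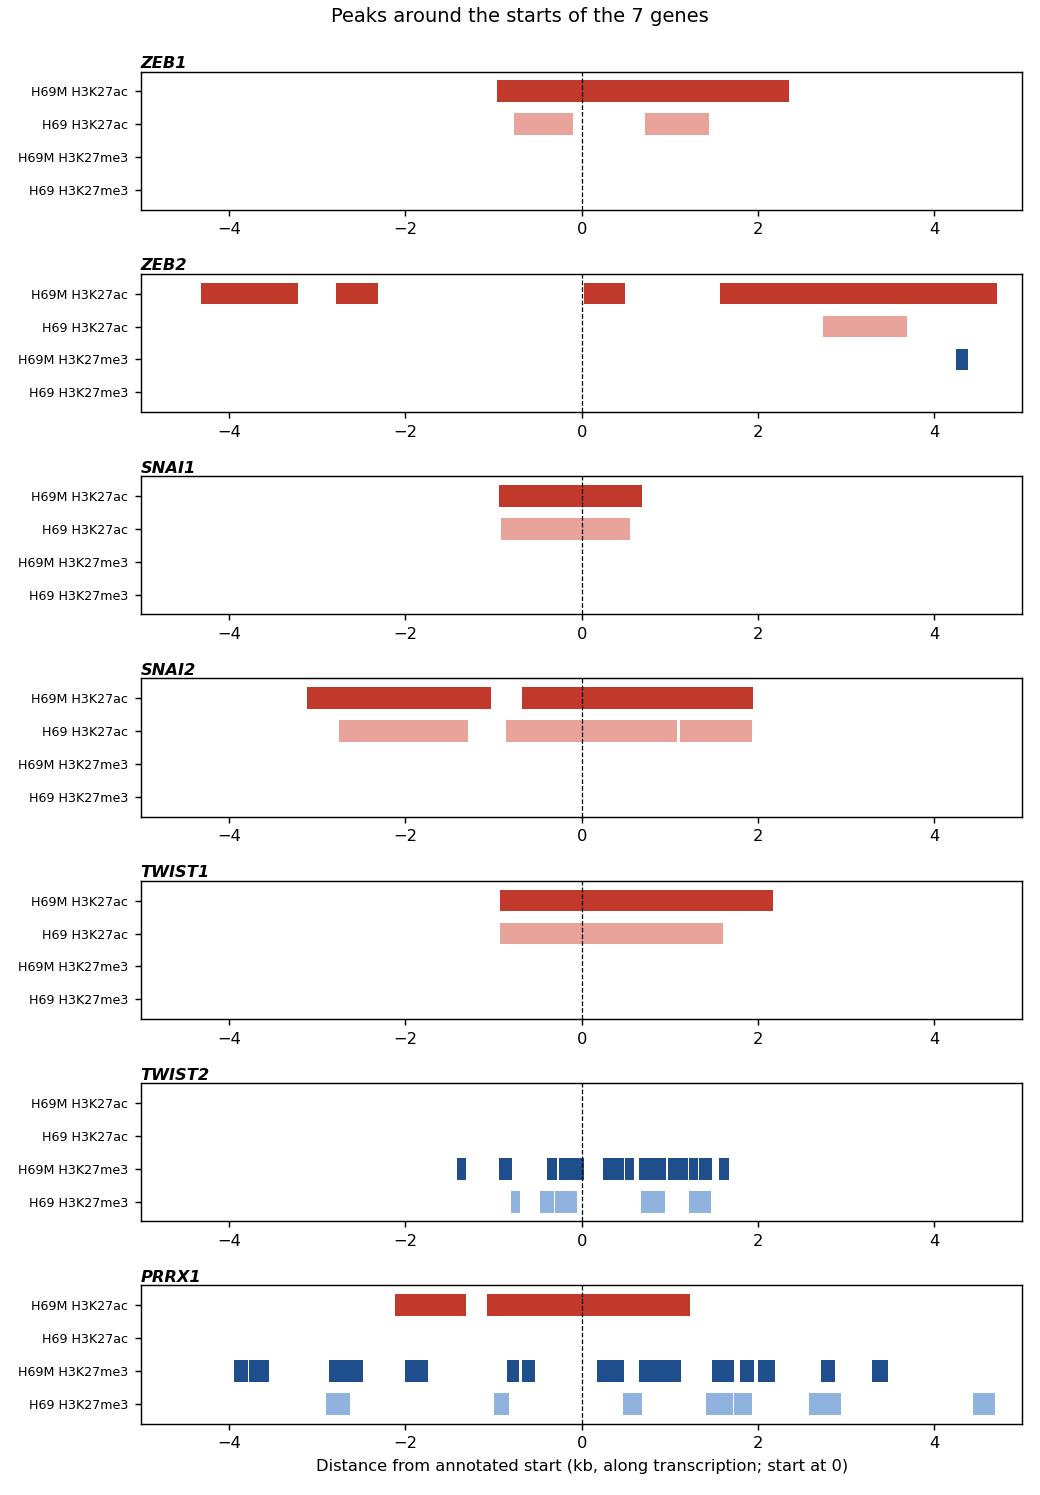
Each panel shows the 10 kb around the annotated start of a gene (dashed line at 0, kb along the direction of transcription), with boxes for the peaks of H69M H3K27ac, H69 H3K27ac, H69M H3K27me3 and H69 H3K27me3 drawn to scale. SNAI2 and TWIST1 carry similar boxes in both lines, ZEB1 and ZEB2 wider ones in H69M, TWIST2 H3K27me3 in both lines, and PRRX1 both marks in H69M.

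TWIST2, on chromosome 2 from 239756673 to 239832244 (plus strand), encodes a relative of TWIST1 found in dermis and muscle precursors. Its start lay among H3K27me3 peaks, 11 over 1892 bp in H69M and 5 over 1039 bp in H69. All of them lay within 5 kb of the start, and they covered 47.3% of the 4 kb around it in H69M and 26.0% in H69. The strongest scored 163.8 in H69M and 105.0 in H69, with 92.8% of the H69M list and 87.6% of the H69 list below. H3K27me3 peaks were short throughout, with a median width of 156 bp in the H69M list and 185 bp in the H69 list. Of the TWIST2 peaks, 6 of 11 in H69M and 4 of 5 in H69 scored under 100. Of the H69 peaks 5 of 5 overlapped an H69M peak. With equal numbers of peaks in both lists, TWIST2 kept 6 H3K27me3 peaks over 1314 bp in H69M against 5 over 1039 bp in H69. The difference shrank to 275 bp and the ratio from 1.82 to 1.26. Over the gene span alone the ratio was 2.88, and for peaks scored 100 or higher 4.90 (1201 bp against 245 bp). H69M had 3 H3K27ac peaks away from the start, of 876 and 560 bp with centres 15.9 and 16.6 kb after it (scores 110.4 and 342.8) and a weak one of 572 bp at the end of the gene (score 51.3). H69 had none, and its nearest H3K27ac peak was 343 kb from the start.

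PRRX1, on chromosome 1 from 170633313 to 170708541 (plus strand), encodes a homeodomain factor of limb and craniofacial mesenchyme. H3K27ac was listed there in H69M only, and the nearest H69 peak was 131 kb from the start. In H69M a peak of 2303 bp at 170632245 to 170634547 spanned the start, with a score of 1066 (74.5% of the list below). Of all H69M H3K27ac peaks scored 1000 or higher, 6.54% had no overlapping H69 peak, and PRRX1 was the only such site of the 5 in the 7 windows. H69M had weaker peaks with centres 1.71 kb before the start (817 bp, score 158.0) and 42.8 kb after it (703 bp, score 115.7).

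H3K27me3 was listed at PRRX1 in both lines. The window of the gene held 18 peaks over 3745 bp in H69M and 7 over 1804 bp in H69, a ratio of 2.08. Within 5 kb of the start there were 14 peaks over 3062 bp in H69M and 7 over 1804 bp in H69. Most peaks of the window were weak, with 14 of 18 in H69M and 5 of 7 in H69 scored under 100. Of the 7 H69 peaks 6 overlapped an H69M peak, and the other one was the weakest (score 50.2). The strongest H69M peak, 481 bp at 170633960 to 170634440 with a score of 250.5 (96.4% of the list below), overlapped the weak H69 peak at 170633778 to 170633998 (score 55.8). It lay inside the H69M H3K27ac peak over the start. The H69 peak of highest score (146.8, 170635895 to 170636260) had a weak H69M counterpart (score 50.8). The difference between the lines, 1941 bp, was 904 bp over the gene span alone and 637 bp for peaks scored 100 or higher, with H69M the longer each time.

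H3K27me3 was longer in H69M at the 3 genes that held it (ZEB2, TWIST2 and PRRX1), as in 62.0% of 20 kb tiles and 62.7% of 200 kb tiles with the mark. At ZEB2 and PRRX1 it was at least 2 times as long or in H69M alone, against 50.8% and 45.1% of such tiles. At ZEB2 it was in H69M alone, against 40.3% and 28.4%. Neither call was stable. The PRRX1 ratio was 1.72 with equal numbers of peaks, 1.67 over the gene span alone and 1.99 for peaks scored 100 or higher. ZEB2 had no H3K27me3 peak scored 100 or higher. TWIST2, with a ratio of 1.82, passed 2 over the gene span alone (2.88) and for peaks scored 100 or higher (4.90). ZEB1, SNAI1, SNAI2 and TWIST1 had no H3K27me3 peak in H69M or H69, and the nearest ones were far off. They were 664 kb from SNAI1 in H69M and 1467 kb in H69. From SNAI2 they were 435 and 632 kb away in H69M and H69, and from TWIST1 1819 and 2655 kb. The H3K27me3 lists cover only 7.96 Mb in H69M and 4.91 Mb in H69, so a missing peak does not show that the mark is absent.

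**Figure D3:**
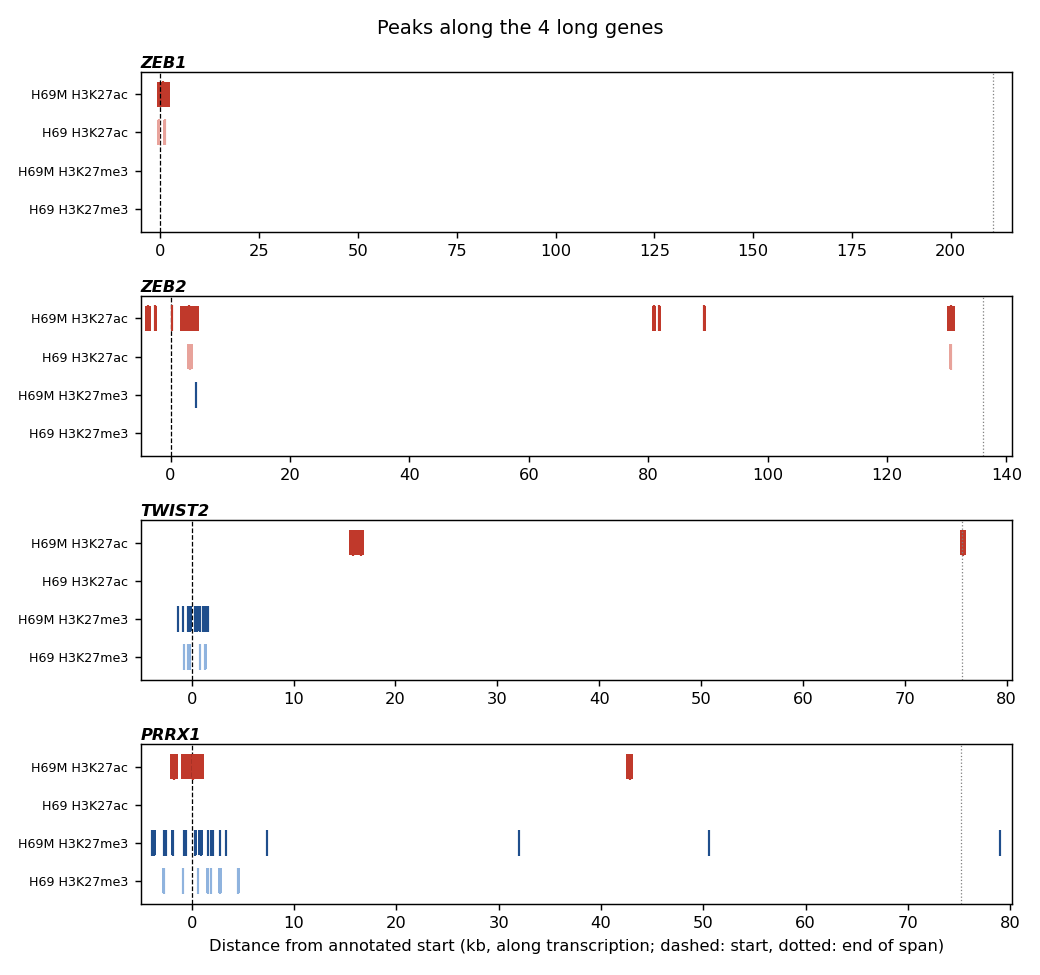
Peaks of H69M and H69 along the 4 genes over 75 kb long, by distance from the annotated start (kb), with the end of the gene dotted. Boxes are peaks, and a tick at each centre is wider than the narrow peaks it marks. H3K27ac gathers at the start of ZEB1 and is spread over ZEB2 in H69M, and H3K27me3 gathers at the starts of TWIST2 and PRRX1.

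The marks met at few of the genes. Of the 20 H3K27ac peaks in H69M, 3 overlapped an H3K27me3 peak of H69M (15.0%, exact 95% interval 3.21 to 37.9), against 1.56% of all H69M H3K27ac peaks. These were the PRRX1 start peak with 4 H3K27me3 peaks, its upstream neighbour with 1 and the strongest ZEB2 peak with 1. Seen from the other mark, 6 of the 30 H3K27me3 peaks in H69M lay under H69M H3K27ac (20.0%, 7.71 to 38.6), against 3.50% of all. In H69, 0 of 9 H3K27ac peaks met H3K27me3, against 0.805% of all, and an interval that reaches 33.6% says little at this number. The PRRX1 start peak of H69M also overlapped 2 H3K27me3 peaks of H69. It was the only H3K27ac peak of the 20 to do so (5.0%, 0.13 to 24.9). The share of all H69M H3K27ac peaks, 1.32%, lies inside that interval. Of the 12 H3K27me3 peaks of H69, 2 lay under the PRRX1 start peak (16.7%, 2.09 to 48.4). Of all H69 H3K27me3 peaks 4.63% lay under H69M H3K27ac, a share also inside the interval. Neighbouring peaks are not independent, and overlap in lists made from many cells does not show that both marks sit on the same nucleosome or in the same cell.

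In H69M 13 of the 20 H3K27ac peaks had no overlapping H69 peak (65.0%, 40.8 to 84.6), against 48.4% of the whole list. That share lies inside the interval, which treats the peaks as independent although ZEB2 alone gave 8 of the 20. Without ZEB2, 7 of 12 had none (58.3%). In H69 0 of 9 H3K27ac peaks lacked an H69M counterpart (upper limit 33.6%), against 22.5%. Every H3K27ac site of the 7 windows in H69 was thus listed in H69M too. With 20 kb on each side of the genes, 1 of 11 H69 peaks had no H69M counterpart. Of the H3K27me3 peaks 17 of 30 in H69M (56.7%, 37.4 to 74.5) and 1 of 12 in H69 (8.33%, 0.211 to 38.5) had no counterpart, against 81.1% and 67.4% of the whole lists. The H3K27me3 peaks at TWIST2 and PRRX1 lay close together, so their counterparts are not independent. With equal numbers of peaks 12 of 21 in H69M and 4 of 12 in H69 had none. When an overlap of 50% of the shorter peak was required, 21 of 30 in H69M and 4 of 12 in H69 had none. The shares of the whole lists under these settings were not computed. With only peaks scored 100 or higher in each list, 8 of 9 in H69M and 2 of 3 in H69 had none, against 76.5% and 46.5% of the lists under the same limit. With a counterpart allowed within 5 kb 4 of 30 in H69M and 0 of 12 in H69 had none, against 39.5% and 29.8% of the lists.

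**Figure D4:**
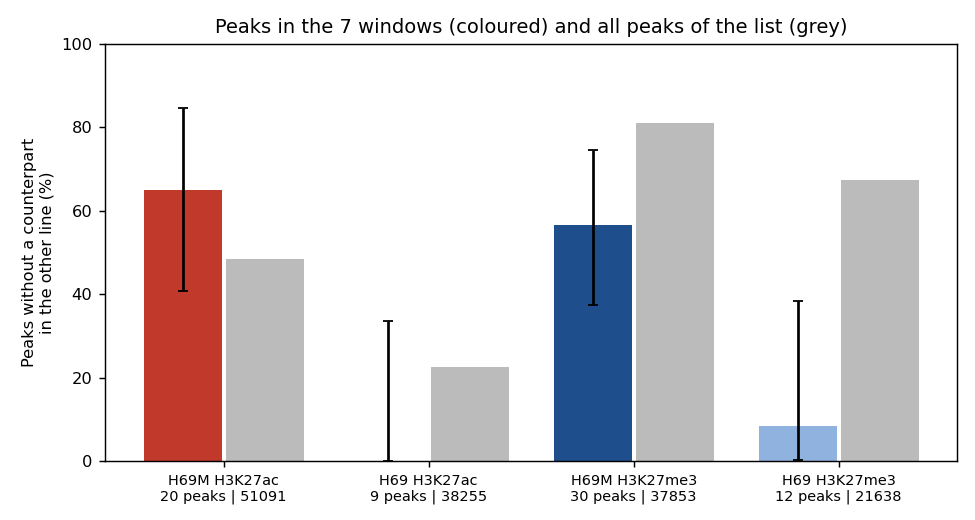
Percent of peaks without an overlapping peak in the other line, for the peaks in the 7 windows (coloured, with exact 95% binomial intervals that cover counting error only) and for all peaks of the list (grey), with the numbers of each under the bars. For H3K27me3 the coloured bars stand below the grey ones, and for H3K27ac in H69M the grey bar lies within the interval.

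The promoters of ZEB1, ZEB2 and PRRX1, whose H3K27ac within 2 kb of the start differed most in length between H69M and H69, and of TWIST2, which had no H3K27ac there, are shown with the hexamers CACCTG and CAGGTG in capitals, the site that ZEB and SNAIL proteins recognise. Each is 250 bases before to 50 after a RefSeq start on GRCh38.p14, in the direction of transcription. RefSeq coordinates are not those of the peaks, which lie on hg19, so bases are not matched to peaks. Windows of 4 of the 7 genes were used. The chromosome of SNAI2 was left out of the search for gene windows, and none was found for SNAI1 or TWIST1. Of the 7 ZEB1 starts, spread over 3.24 kb, 2 have a start of the divergent antisense gene ZEB1-AS1 in their window, and the one of these that holds the hexamers is shown, chosen after the search. H3K27ac at such a shared start cannot be assigned to either gene. The windows are chr10:31318966-31319265 (plus strand) for ZEB1, chr2:144520070-144520369 (minus) for ZEB2, chr1:170663881-170664180 (plus) for PRRX1 and chr2:238847835-238848134 (plus) for TWIST2.
ZEB1: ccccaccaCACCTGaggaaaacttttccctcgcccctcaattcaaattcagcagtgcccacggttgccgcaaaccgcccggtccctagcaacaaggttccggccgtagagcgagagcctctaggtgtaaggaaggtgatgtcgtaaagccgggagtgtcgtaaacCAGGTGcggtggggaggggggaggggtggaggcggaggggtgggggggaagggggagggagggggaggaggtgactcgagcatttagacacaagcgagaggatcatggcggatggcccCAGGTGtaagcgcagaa
ZEB2: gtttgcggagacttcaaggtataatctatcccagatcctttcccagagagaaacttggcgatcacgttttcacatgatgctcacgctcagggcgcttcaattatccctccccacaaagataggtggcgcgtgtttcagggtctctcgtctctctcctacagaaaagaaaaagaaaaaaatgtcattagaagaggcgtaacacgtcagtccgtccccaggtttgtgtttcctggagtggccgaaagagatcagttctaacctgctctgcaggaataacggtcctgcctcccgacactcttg
PRRX1: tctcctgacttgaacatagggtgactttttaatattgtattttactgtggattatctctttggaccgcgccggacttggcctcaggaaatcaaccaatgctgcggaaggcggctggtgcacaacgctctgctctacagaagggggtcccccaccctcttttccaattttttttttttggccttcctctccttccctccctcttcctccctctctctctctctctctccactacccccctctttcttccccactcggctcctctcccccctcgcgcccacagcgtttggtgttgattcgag
TWIST2: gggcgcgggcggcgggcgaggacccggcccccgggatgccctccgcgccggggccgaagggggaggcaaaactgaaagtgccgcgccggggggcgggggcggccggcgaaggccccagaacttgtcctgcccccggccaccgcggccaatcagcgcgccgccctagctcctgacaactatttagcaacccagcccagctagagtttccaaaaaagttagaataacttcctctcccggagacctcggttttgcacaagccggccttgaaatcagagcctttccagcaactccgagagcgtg

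The ZEB1 window held 3 of these hexamers, beginning 242 and 85 bases before the start and 33 bases after it, and 2 of the 7 ZEB1 windows held at least 1. The ZEB2, PRRX1 and TWIST2 windows held 0. Over all 35116 RefSeq promoter windows of this length 20.6% held CACCTG or CAGGTG on either strand (each is the reverse complement of the other), and 68.7% held the wider E-box CANNTG, of which these hexamers are a subset. CpG dinucleotides numbered 29 in the TWIST2 window, 17 in the ZEB1 window shown, 14 in ZEB2 and 11 in PRRX1, against a median of 14. The 7 ZEB1 windows held from 7 to 35. A link between CpG number and H3K27me3 was not tested. A match describes letters only and says nothing of binding in these cells.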

How the data were processed

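ChIP-seq for H3K27ac (Abcam ab4729) and H3K27me3 (clone C36B1) was made from formaldehyde-fixed, sonicated chromatin, and sequenced on a NextSeq500 from paired ends, per the labels' protocols. Input libraries, 1 per line, were not used here. The submitters' processing notes name Bowtie2, SAMtools 0.1.19 and hg19. The deposited lists give 1 score per peak, and their peak names carry MACS, per the file contents. No source used here defines the score or names the caller version or its control. Read depth is unknown, so counts and lengths of peaks could not be corrected for it.

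Peaks on chromosomes 1 to 22 and X were used, with 1-based positions. A counterpart is an overlap of 1 bp or more, the covered length sums whole peaks, and the start is the strand-aware end of the span. Shares carry exact (Clopper-Pearson) 95% intervals, which cover counting error only. With 1 library per group no test between lines was possible. The overlap code was tested on simulated data. Tiles of 20 and 200 kb and all peaks serve as background. All 7 genes are named, and the genes, limits and settings were chosen with earlier results of these data known. Alternatives were other windows, a score of 100 or more, equal numbers of peaks, stricter or looser counterparts, and leaving out ZEB1 or ZEB2. Promoter sequences are RefSeq's. Python 3.11.15, pandas 2.3.3 and scipy 1.17.1 were used.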

Additional observations from a re-analysis of the deposited data

How the results depend on the processing

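Of 56 recomputed counts and shares over the genes, 51 stayed within 1.5 times the reported count or inside the interval of the reported share. The intervals are wide, so this is a lenient limit. The share of H69 H3K27me3 peaks without a counterpart rose from 8.33% to 33.3% with equal numbers of peaks and still counts as inside. Leaving out ZEB1 could not change the H3K27me3 shares, because ZEB1 had no such peak. With a score of 100 or more, genes with H3K27me3 at the start in H69 numbered 1 (TWIST2) in place of 2. H3K27me3 peaks without a counterpart were then 88.9% in H69M and 66.7% in H69, against 76.5% and 46.5% of the lists under the same limit. With a counterpart allowed within 5 kb these were 13.3% in H69M and 0% in H69, against 39.5% and 29.8% of the whole lists. The first limit leaves 9 and 3 peaks in the windows. Of 56 recomputed lengths per gene, 16 had no peak in either line and say nothing of stability. Of the other 40, 31 stayed within 1.5 times, 8 moved by more (1 of them to 0) without changing direction, and SNAI2 H3K27ac over its span alone reversed to -138 bp. Equal numbers of peaks kept 38255 H3K27ac and 21638 H3K27me3 peaks per line. No paired analysis was possible because each group holds 1 library, and no replicate could be left out for the same reason.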

Other observations

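Peaks were also listed in the surroundings of the genes, from the edge of each window out to 100 kb from the gene. These peaks were not assigned to any gene, and no test between the lines was possible. Scores rank peaks within a list only, so those given for H69M and H69 do not compare strength between the lines. Around SNAI1 H69M had 11 H3K27ac peaks over 11.4 kb and H69 had 2 over 3.24 kb. The strongest pair, with centres 67.3 and 46.6 kb before the start in H69M, was present in H69 as well. The 9 peaks found only in H69M scored 54.0 to 334.7, the highest of them 46.9 kb after the start. Of the whole H69M H3K27ac list, 48.4% of peaks had no overlapping H69 peak. Around SNAI2 H69M had fewer but longer peaks, 8 over 14.2 kb against 11 over 10.1 kb in H69. There a peak 42.7 kb after the start was 3690 bp wide with a score of 3100 in H69M, and 2125 bp wide with a score of 2005 in H69. A peak 51.4 kb after it was of similar width, 1088 bp in H69M and 1046 bp in H69, with a score of 286.5 in H69M and 1365 in H69.

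TWIST1 had 4 peaks over 5.99 kb in H69M and 3 over 4.79 kb in H69, and ZEB1 had 1 peak in each line. Around ZEB2 there were 3 peaks in H69M and 1 in H69, and the shared one, 188 kb after the start and so past the end of the gene, scored 1300 in H69M and 339.5 in H69. PRRX1 had 3 weak H3K27ac peaks in H69M (scores 59.5 to 120.6), all upstream, and none in H69, and TWIST2 had none in H69M or H69.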
